A study of Mus musculus with 4 samples.

Results

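The globin and erythroid genes described here are Hba-a1, Hba-x, Hbb-b1, Hbb-y, Hbb-bh1, Alas2, Epor, Klf1 and Gata1, which are 9 of the 29924 gene names on the arrays. They were taken by name, with every probe that carries one of these names in the array files, which gave 10 of 39429 gene probes. Expression was measured in ureters of wildtype NMRI mouse embryos of E12.5, sex not determined, that were explanted and cultured for 18 h on transwell membranes. The treated pools received 10 µM IWP-2, an inhibitor of the acyltransferase Porcupine that WNT ligands need for their secretion, and the control pools received the solvent DMSO. Each of 4 two-colour arrays carried RNA of 1 pool of treated and 1 pool of control ureters, with the treated RNA in the red dye on arrays 1 and 3 and in the green dye on arrays 2 and 4. The labels number the arrays as 4 replicates and the study's methods count as many pools, but its results text and legend speak of fewer pools and arrays for this stage. Whether some arrays share RNA is therefore not settled, and if they do, the SDs and p-values over n = 4 are too small. As it stands both rest on differences between these arrays, which may be technical. The SDs are over the 4 ratios of a gene and hold any effect of the dye. The limma p-values come from a fit that takes out a dye term and draws the variance of a gene towards that of all genes. They therefore do not measure the spread that the SD gives.

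Haemoglobin is a tetramer of alpha-type and beta-type globin chains, encoded in mice by a cluster on chromosome 11 and a cluster on chromosome 7. In each cluster the embryonic genes are used first: Hba-x encodes the zeta chain, and Hbb-y and Hbb-bh1 encode the epsilon-y and beta-h1 chains of primitive erythroid cells, which arise in the yolk sac and circulate as large, at first nucleated cells. Hba-a1 and Hbb-b1 are adult-type genes of the definitive erythroid cells that the fetal liver releases, and the adult-type alpha genes are used by primitive cells as well. The ureter does not form blood, so that erythroid transcripts in an explant are commonly read as those of blood cells held in its vessels. In pooled tissue, fewer cells of a type and less RNA per cell cannot be told apart.

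The probes decide which globin a signal stands for. The following 60-base probes, read from the array files, are shown because each lies in coding sequence of its gene, with 1 reading frame free of stop codons. They are printed in lower case, with nothing marked.
Hba-a1: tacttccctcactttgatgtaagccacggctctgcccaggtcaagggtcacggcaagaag
Hba-x: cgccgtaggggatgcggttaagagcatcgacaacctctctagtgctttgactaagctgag
Hbb-y: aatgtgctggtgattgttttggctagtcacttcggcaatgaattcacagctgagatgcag
The files place them, on the mm9 build, at chr11:32183955-32184014, chr11:32177668-32177727 and chr7:111000448-111000507. No globin probe of these genes, nor those of Hba-a2, Hbb-b2 and Hbb-bt, shared more than 8 bases in a row with another. This compares probe with probe and not with the other transcripts, so it does not measure how specific a probe is. The probes of the near-identical copies Hba-a1 and Hba-a2 themselves shared a run of only 6 bases. The probe of Hba-a1 lies in the coding part that Hba-a1 and Hba-a2 share almost entirely. Signal named Hba-a1 is therefore uncertain between these copies. The probe of Hbb-b1 (chr7:110976379-110976438, minus strand) begins with 46 bases that equal bases just past the transcription start of Hbb-bs in the RefSeq table (GRCm38.p6), up to the end of the window that the table holds, and 14 bases of the probe could not be compared. Hbb-b1 and Hbb-bs are names for the adult beta gene at the same place in different mouse haplotypes, and the haplotype of these NMRI embryos is not given in the sources used here.

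All 10 probes were well above background in both channels of all 4 arrays, and no gene spot was saturated. Brightness depends on the probe, and no level of one gene is set against that of another. Raw gene spots had a median intensity of 368 to 711 in control channels and 385 to 694 in treated channels. Markers of the labelled tissue were present, as all 6 markers of ureter epithelium and all 6 of ureter mesenchyme passed the filter on dim probes. Over the 22455 genes tested, 18.1% were called higher and 15.0% lower with IWP-2 (limma, adjusted p under 0.05), and the median log2 ratio was 0.00.

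All 5 globin genes were called higher with IWP-2, by 1.14-fold to 1.23-fold, and none of the 4 other erythroid genes was called. The median log2 ratio of IWP-2 over control was 0.28 over the 5 globins and 0.10 over Alas2, Epor, Klf1 and Gata1. The size depended on the normalisation. With median centring of the arrays in place of loess, the globins had mean log2 ratios of 0.11 to 0.20, against 0.19 to 0.30. Among the 3661 genes whose probes were at least as bright as that of Hbb-b1, the dimmest of the 5, 14.6% were called higher and 11.5% lower. The 5 globins lie in 2 clusters and were measured in the same pools, so that they are not 5 independent observations. In no member did the treated channels all lie above the control channels, which was the case for 11.0% of all genes.

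**Figure D1:**
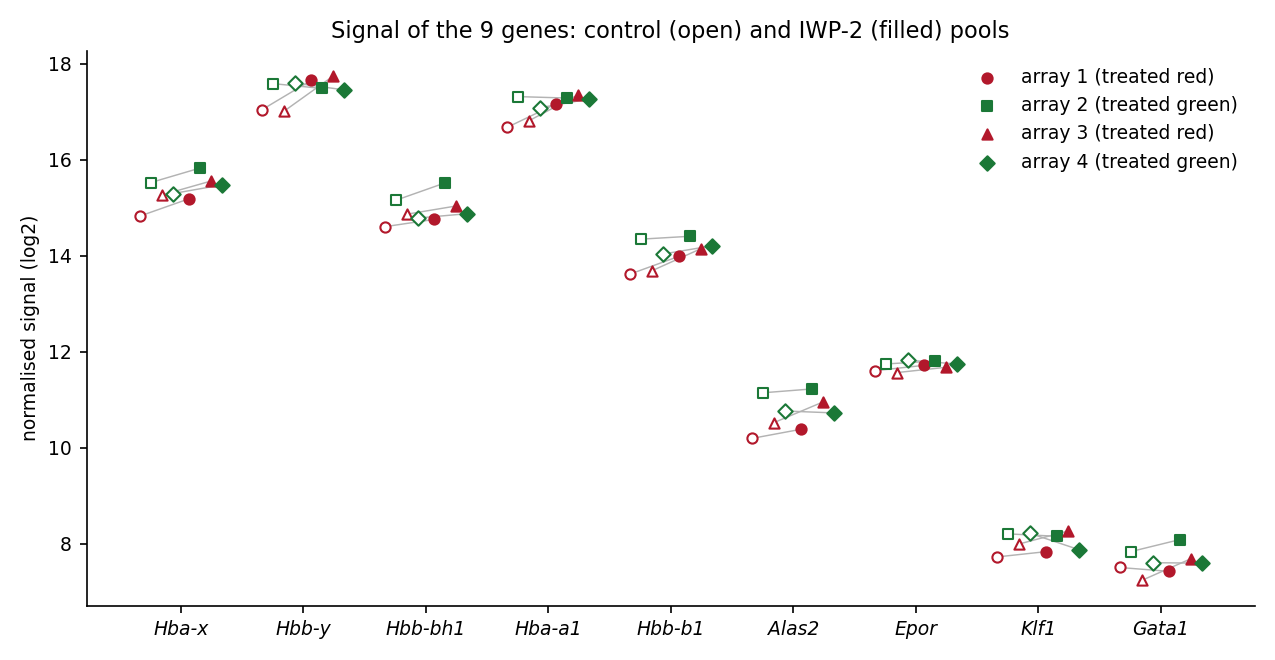
Normalised log2 signal of each of the 9 genes in the control (open) and IWP-2 (filled) pool of each array, with a grey line joining the pools of an array. Red symbols are arrays with the treated pool in the red dye and green symbols those with it in the green dye. Control and treated values overlap for all 9 genes, and for the 3 genes Hba-x, Hbb-bh1 and Hbb-b1 all 4 lines go up.

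Hba-x, the embryonic zeta chain, had the smallest SD of the log2 ratio among the 9 genes. Its control pools had log2 signals of 14.83, 15.53, 15.27 and 15.30 on arrays 1 to 4, and the treated pools of the same arrays 15.19, 15.83, 15.56 and 15.48. Every treated pool lay above the control pool of its own array, while the groups overlapped because array 1 was low and array 2 high in both pools. The log2 ratios were 0.36, 0.30, 0.29 and 0.19, with a mean of 0.28 ± 0.07 (SD, n = 4), a fold of 1.22 and an adjusted p of 0.00379 by limma. The call was lost with the 8 channels taken as separate samples, without the pairing of the pools on an array, where the adjusted p was 0.291.

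Hbb-bh1, the beta-h1 chain, had the smallest ratio of the 5 globin members. The control pools had 14.61, 15.16, 14.87 and 14.79, and the treated pools 14.76, 15.52, 15.04 and 14.88. Here too each treated pool was the higher of its pair, by log2 ratios of 0.15, 0.35, 0.17 and 0.10, and array 2 gave the largest value. The mean was 0.19 ± 0.11 (SD, n = 4), or 1.14-fold, with an adjusted p of 0.0326 by limma. This call depended on single arrays, since the adjusted p was 0.0834 without array 1, 0.134 without array 2 and 0.102 without array 3.

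Hbb-y, the epsilon-y chain, split by the dye. Its brightest probe gave 17.05, 17.59, 17.02 and 17.60 in the control pools and 17.66, 17.49, 17.75 and 17.46 in the treated pools. On arrays 1 and 3, with the treated RNA in red, the treated pool was the higher, with log2 ratios of 0.61 and 0.73. With the dyes exchanged on arrays 2 and 4 it was the lower, with -0.10 and -0.14. The mean over both dye orders was 0.28 ± 0.46 (SD, n = 4), a fold of 1.21, and the fit with a dye term for each gene gave an adjusted p of 0.0041 by limma. Without that term the adjusted p was 0.238, and with median centring of the arrays in place of loess 0.0662. The second probe, printed above, gave log2 ratios of 0.55, 0.02, 0.60 and 0.02, with a mean of 0.30 ± 0.32 (SD, n = 4) and an adjusted p of 0.00224 for the probe by limma. It had the same split in size, but none of its 4 values was below 0.

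Hba-a1, an adult-type alpha gene, followed the same dye order. Control pools had 16.68, 17.32, 16.82 and 17.09, and treated pools 17.17, 17.29, 17.36 and 17.27. The log2 ratios were 0.50 and 0.54 on the arrays with the treated RNA in red and -0.03 and 0.18 on the others, so that 3 of 4 arrays were higher. The mean of 0.30 ± 0.27 (SD, n = 4), a fold of 1.23, had an adjusted p of 0.00513 by limma. The call was lost without the dye term, at an adjusted p of 0.062, and without the pairing of channels, at 0.0877.

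Hbb-b1, the adult-type beta gene, had control signals of 13.62, 14.35, 13.69 and 14.04 and treated signals of 13.99, 14.41, 14.15 and 14.21. All 4 ratios were above 0, at 0.37, 0.06, 0.46 and 0.17 on the log2 scale, and again larger on arrays 1 and 3. The mean was 0.27 ± 0.18 (SD, n = 4), or 1.2-fold, with an adjusted p of 0.00534 by limma. The adjusted p was 0.0677 with the fold changes of the deposited series table and 0.289 without the pairing of channels.

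**Figure D2:**
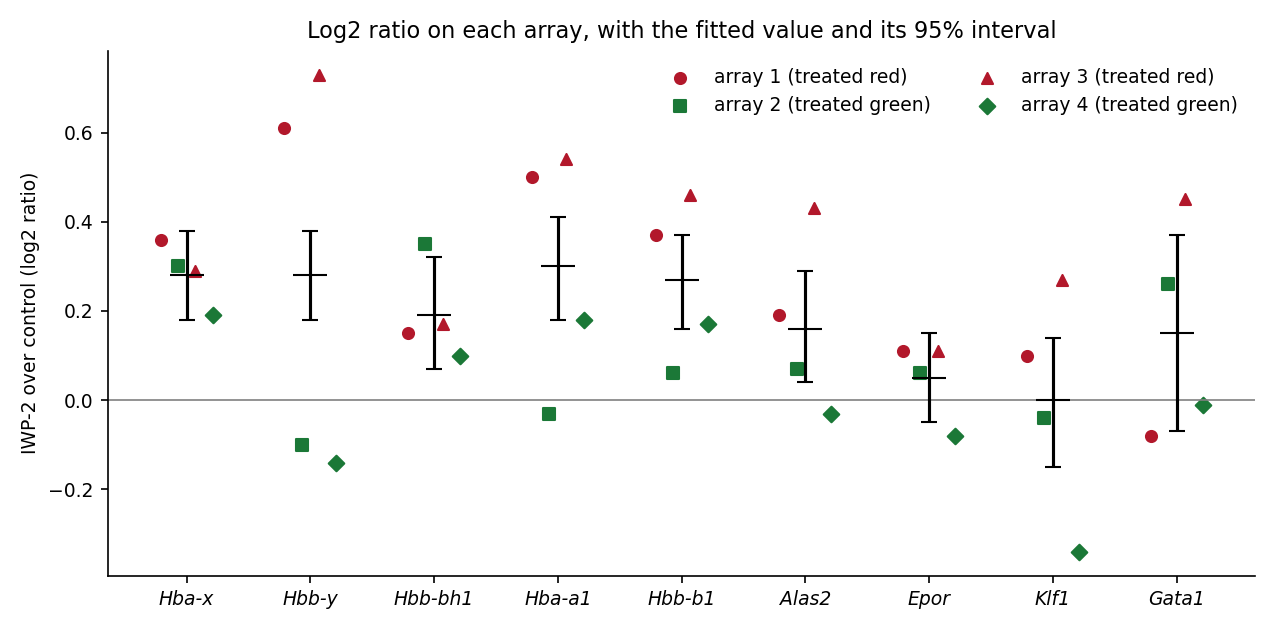
Log2 ratio of IWP-2 over control for each of the 9 genes on each array (symbols, coloured by the dye of the treated pool), with the fitted value and its 95% interval from limma (black). The interval lies above 0 for the 5 globins and for Alas2, whose adjusted p was 0.0539, and the 2 dye orders lie furthest apart for Hbb-y.

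The other 4 genes belong to the machinery of red cell formation. Alas2 encodes the erythroid form of the first enzyme of haem synthesis, and its control pools had 10.20, 11.15, 10.53 and 10.77 against 10.39, 11.23, 10.96 and 10.73 in the treated pools. The log2 ratios of 0.19, 0.07, 0.43 and -0.03 had a mean of 0.16 ± 0.20 (SD, n = 4) and an adjusted p of 0.0539 by limma, and leaving out array 1 brought it to 0.0301. Gata1, which encodes the GATA factor that drives erythroid genes, had log2 ratios of -0.08, 0.26, 0.45 and -0.01, with a mean of 0.15 ± 0.25 (SD, n = 4) and an adjusted p of 0.245 by limma (0.0287 without array 1).

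Klf1 encodes the zinc finger factor that binds CACCC boxes of globin genes. Its log2 ratios were 0.10, -0.04, 0.27 and -0.34, with a mean of 0.00 ± 0.26 (SD, n = 4) and an adjusted p of 0.984 by limma. Epor, the receptor for erythropoietin, gave 0.11, 0.06, 0.11 and -0.08, with a mean of 0.05 ± 0.09 (SD, n = 4) and an adjusted p of 0.416 by limma. The 95% intervals of the log2 ratio were -0.15 to 0.14 for Klf1 and -0.05 to 0.15 for Epor. They lay below the mean ratios of the 5 globins, 0.19 to 0.30. The interval of Hbb-bh1 itself, 0.07 to 0.32, overlapped both, and those of the other globins began at 0.16 to 0.18. The intervals of Gata1, -0.07 to 0.37, and Alas2, 0.04 to 0.29, reached into the range of the globin means. The difference between the 4 genes and the globins was not tested. Klf1 and Gata1 were close to the dim end of the arrays, with log2 signals of 7.24 to 8.27 over all channels, where the offset added before the logarithm draws ratios towards 0.

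No difference in response between embryonic and adult-type globins was detectable. The median log2 ratio was 0.28 for the 3 embryonic genes and 0.28 for the 2 adult-type genes. Within the alpha cluster, Hba-x minus Hba-a1 was -0.14, 0.33, -0.25 and 0.01 on arrays 1 to 4, with a mean of -0.01 ± 0.25 (SD, n = 4; exact sign-flip permutation test, two-sided, p = 1). In the beta cluster, Hbb-y minus Hbb-b1 averaged 0.01 ± 0.29 (SD, n = 4, exact permutation p = 1) and Hbb-bh1 minus Hbb-b1 -0.07 ± 0.26 (SD, n = 4, exact permutation p = 0.625). All 3 pairs had an adjusted p of 1 by the exact test, and with 4 arrays the smallest p it can give is about 0.13, so that no difference could have passed. The signs turned with the dye order in each pair except that Hbb-bh1 minus Hbb-b1 on array 4 was -0.07.

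The part of the dye was measured for each gene as 0.5 times the difference between the mean ratio of the arrays with the treated RNA in red and that of the arrays with it in green. It was 0.40 for Hbb-y, 0.22 for Hba-a1 and 0.15 for Hbb-b1, and 0.04 and -0.04 for Hba-x and Hbb-bh1. Of all genes, 5% lay under -0.16 and 5% over 0.13. By signal, Hbb-y ranked 10 and Hba-a1 102 among the probes tested, and over the 100 brightest genes the median of this dye term was 0.21, with the central 90% between 0.07 and 0.32. Hba-x, Hbb-bh1 and Hbb-b1 ranked 1394, 1925 and 3661. With the treated pool in red alone, the log2 ratios were 0.67 for Hbb-y, 0.52 for Hba-a1, 0.42 for Hbb-b1, 0.32 for Hba-x and 0.16 for Hbb-bh1. With the treated pool in green alone they were -0.12, 0.07, 0.11, 0.24 and 0.23 in the same order of genes. The order of the 5 globins by size was thus different in the 2 dye orders, and Hbb-y alone turned its sign.

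**Figure D3:**
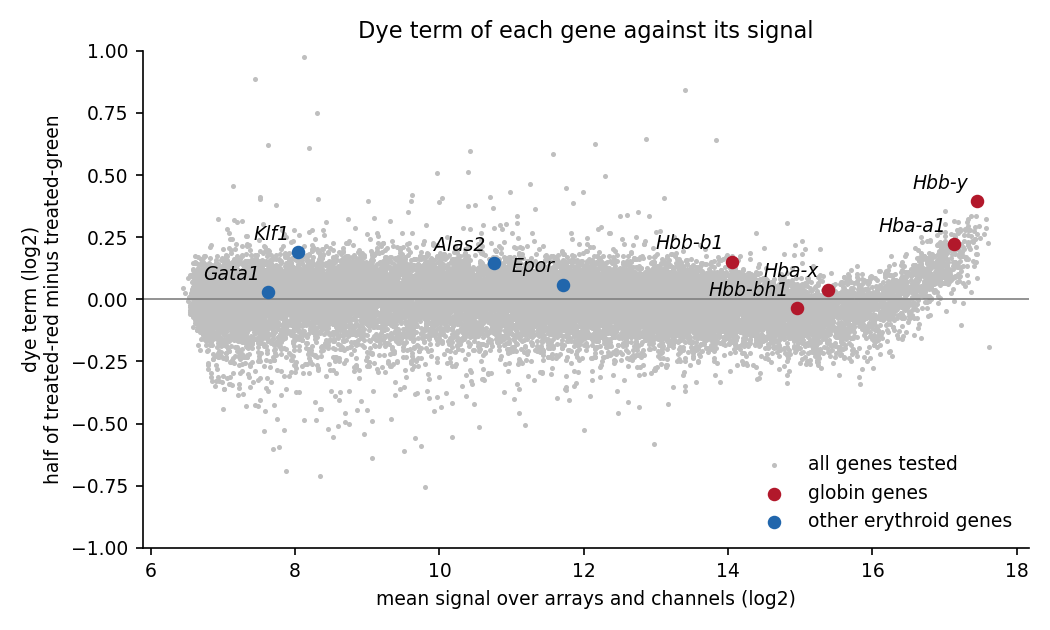
Dye term of each of the 22455 genes tested (grey) against its mean log2 signal, as 0.5 times the ratio with the treated pool in red minus that with it in green, with the 5 globins in red and the 4 other genes in blue. The cloud bends upward at its bright end, where Hbb-y (0.40) and Hba-a1 (0.22) lie, while Hba-x and Hbb-bh1 lie near 0.

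The signal of most of the 9 genes also varied between arrays. Averaged over both channels, the log2 signal of Hba-x was 15.01 on array 1, 15.68 on array 2, 15.42 on array 3 and 15.39 on array 4. Alas2 had 10.29, 11.19, 10.74 and 10.75, and Hbb-b1 13.81, 14.38, 13.92 and 14.13. Array 1 was the lowest and array 2 the highest for Hba-x, Hbb-bh1, Hbb-b1, Hba-a1, Hbb-y, Alas2 and Klf1. Gata1 was highest on array 2 as well, and Epor, with 11.66, 11.78, 11.62 and 11.79, had its lowest value on array 3 and its highest on array 4. The SD between arrays was 0.37 for Alas2, 0.28 for Hbb-bh1, 0.27 for Hba-x, 0.25 for Hbb-b1, 0.23 for Gata1 and 0.18 for Klf1, against a median of 0.07 over all genes. Alas2 exceeded 99.5% of all genes in this SD, Hbb-bh1 98.3%, Hba-x 98.1% and Hbb-b1 97.5%. Hba-a1 and Hbb-y had SDs of 0.16 and 0.10. With the median of each array subtracted in place of quantile scaling, the SDs were 0.36 for Alas2, 0.30 for Hba-x and Hbb-bh1, 0.27 for Hbb-b1, 0.20 for Hba-a1 and 0.11 for Hbb-y. For Hba-x, Hbb-bh1, Hbb-b1 and Alas2 the control pool and the treated pool were each lowest on array 1 and highest on array 2, a difference that cancels in the ratio within an array.

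**Figure D4:**
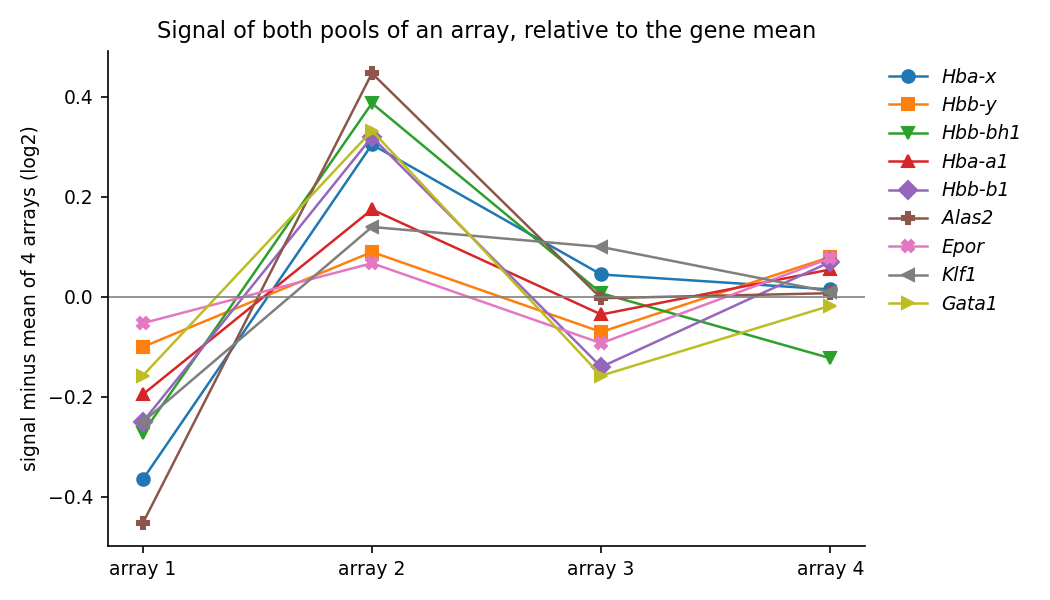
Log2 signal of each gene averaged over both pools of an array, minus the mean of the 4 arrays. Array 1 is lowest and array 2 highest for 7 of the 9 genes, and the range is widest for Alas2, from 10.29 to 11.19.

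The rest of the erythroid programme was described with a list of other erythroid genes, of which 64 were found by name and 60 tested. Of these 12 were called higher and 5 lower, shares near and below the 18.1% and 15.0% of all genes, and their median log2 ratio was 0.05. On all 4 arrays 15 of the 60 were higher and 8 lower, against 22.3% and 21.0% of all genes. Every probe but that of Rhag was above background in all channels.

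Of the 5 other globins tested, 4 were called higher, against 18.1% of all genes. They were measured in the same pools as the members and are not independent observations. Hba-a2, the second adult alpha gene, had log2 ratios of 0.44, 0.09, 0.62 and 0.13 and a mean of 0.32 ± 0.25 (SD, n = 4, limma adjusted p = 0.0033), and its call held in all 18 alternatives with a test. Its treated pools all lay above its control pools. Hbb-bt and Hbb-b2, adult-type beta genes, had means of 0.26 ± 0.27 and 0.21 ± 0.20 (SD, n = 4), with limma adjusted p of 0.0191 and 0.0135. The theta-like gene Hbq1b rose by 0.14 ± 0.10 (SD, n = 4, limma adjusted p = 0.0355), and its neighbour Hbq1a had 0.05 ± 0.10 (SD, n = 4, limma adjusted p = 0.364). The calls of Hbb-bt, Hbb-b2 and Hbq1b were lost in 7, 6 and 8 of the 18 alternatives. Hbb-bh2 was not well above background.

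The counts of haem, iron and membrane genes stand beside 18.1% called higher and 15.0% called lower over all genes. Of 7 haem genes, Cpox and Fech, enzymes of the last steps of haem synthesis, rose by 0.21 ± 0.14 and 0.16 ± 0.10 (SD, n = 4), with limma adjusted p of 0.0427 and 0.0353, and the median of the 7 was -0.02. These calls were lost in 10 and 8 of the 18 alternatives. None of 7 genes of iron uptake and transport was called. Among 16 membrane genes, Ermap was called higher by its brightest probe, at 0.17 ± 0.14 (SD, n = 4, limma adjusted p = 0.0218), a call lost or reversed in 6 of the 18. Its other probes, also above background in all channels, gave -0.19 ± 0.25 and 0.00 ± 0.30 (SD, n = 4). Their limma adjusted p, each of the probe, were 0.025 and 0.981, so that the probes of Ermap did not share a direction. Gypc was called lower, at -0.28 ± 0.05 (SD, n = 4, limma adjusted p = 0.00311). Gypc encodes glycophorin C and is also used outside the blood. The anion exchanger Slc4a1, which marks maturing red cells, had 0.10 ± 0.21 (SD, n = 4, limma adjusted p = 0.328). The ammonium channel Rhag was near background, above it in 2 of 4 control channels and 4 of 4 treated channels, and its log2 ratio lay anywhere from 0.00 to 0.33 over the alternatives.

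Of 12 transcription factors, Tal1 and Lyl1 were called higher and Sox6 lower, no larger shares than over all genes. Over the 18 alternatives the call was lost in 3 for Tal1, 9 for Lyl1 and 6 for Sox6. Tal1, a factor of blood and endothelial precursors, had log2 ratios of 0.40, 0.36, 0.19 and 0.11, with a mean of 0.26 ± 0.14 (SD, n = 4, limma adjusted p = 0.0167). Lyl1, its close relative, had 0.15 ± 0.15 (SD, n = 4, limma adjusted p = 0.0383). Sox6, which represses Hbb-y in definitive erythroid cells and is also used in other tissues, had -0.19 ± 0.12 (SD, n = 4, limma adjusted p = 0.0374). The erythroid factors Nfe2 and Gfi1b had -0.01 ± 0.26 and 0.10 ± 0.14 (SD, n = 4), with limma adjusted p of 0.943 and 0.133.

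The group of globin chaperone and red cell enzymes held 3 genes called lower and 0 called higher among 8. Over all genes, 15.0% were called lower and 18.1% higher. Carbonic anhydrases Car2 and Car1 had -0.44 ± 0.13 and -0.28 ± 0.11 (SD, n = 4), with limma adjusted p of 0.00288 and 0.00681, and the peroxiredoxin Prdx2 had -0.13 ± 0.06 (SD, n = 4, limma adjusted p = 0.0423). A second probe of Car1, also above background in all channels, gave log2 ratios of -0.12, 0.18, -0.13 and 0.07 and a mean of 0.00 ± 0.15 (SD, n = 4, limma adjusted p of the probe 0.987), and the mean over both probes was -0.14. The call of Prdx2 was lost in 9 of the 18 alternatives. Car2 and Prdx2 are active in many cell types. Ahsp, the chaperone of free alpha chains and the member of this group most confined to red cells, had log2 ratios of 0.08, 0.42, 0.42 and -0.07, with a mean of 0.21 ± 0.25 (SD, n = 4, limma adjusted p = 0.126). Of 5 genes of erythropoietin signalling, 3 were called higher, against 18.1% of all genes. They were Kit (0.46 ± 0.08), Jak2 (0.29 ± 0.20) and Socs3 (0.25 ± 0.07, each SD, n = 4). Their limma adjusted p were 0.001, 0.013 and 0.00471, and none of these 3 is confined to the erythroid lineage.

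**Figure D5:**
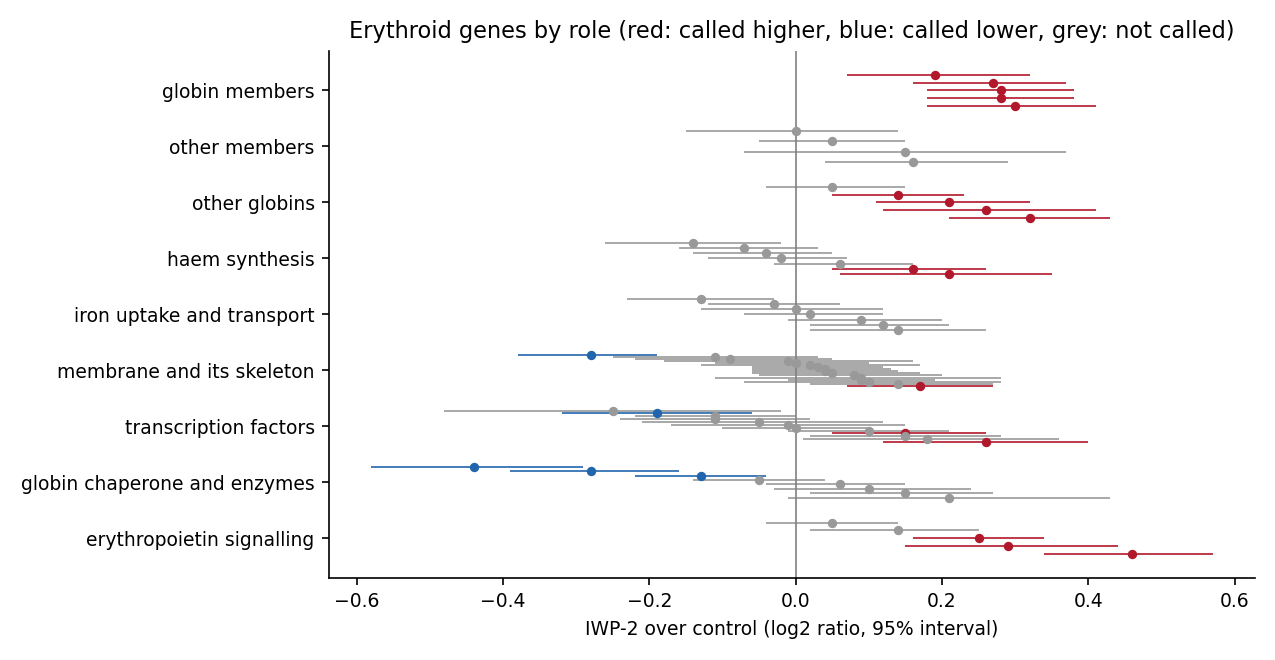
Log2 ratio of IWP-2 over control with its 95% interval for the 9 genes and the 60 other erythroid genes tested, grouped by role. Genes called higher are red, those called lower blue and the others grey. In red are 5 of 5 globin members and 4 of 5 other globins, and 0 of 7 genes of iron uptake and transport were called. Over all genes, 18.1% were called higher and 15.0% lower.

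Markers of other cells in the explant moved in the same contrast, and their part in the globin values was not tested. The counts below stand beside 18.1% called higher and 15.0% called lower over all genes. Of 6 endothelial markers 4 were called higher and 0 lower, with a median log2 ratio of 0.19, among them Kdr (0.15), Cdh5 (0.26), Cldn5 (0.37) and Pecam1 (0.22). Of 6 macrophage markers 5 were above background in all channels, and 3 of these were called higher and 0 lower, with a median of 0.16. Csf1r, the brightest of them, had -0.05 and was not called, while Adgre1 had 0.49. The sixth, Fcgr1, passed the filter through the treated channels and is not counted. Of 5 platelet markers above background in all channels 1 was called, Pf4, with log2 ratios of 0.55, 0.46, 1.31 and -0.08 on arrays 1 to 4. All 6 epithelial markers were called higher, with a median of 0.32, among them Krt18 (0.34) and Krt8 (0.30). In the mesenchyme list 4 of 6 were called lower and 1 higher, with a median of -0.62, Bmp4 at -1.31 and Pdgfra, not called, at -0.06. The marker called higher was Pdgfrb, at 0.80, named here after its value was seen. The mean ratios of the 5 globins, 0.19 to 0.30, lay within the range of the endothelial markers, 0.03 to 0.37. This was not particular to endothelium. They also lay within the ranges of the macrophage markers, -0.05 to 0.49, and the platelet markers, -0.06 to 0.56. The mesenchyme list, -1.31 to 0.80, held them as well, and the epithelial markers ranged from 0.24 to 0.34.

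The promoters are shown as background, because the factors encoded by Klf1 and Gata1 bind CACCC and GATA motifs. Whether a motif has a part in the ratios was not tested. The windows are the 120 bases before the transcription start in the RefSeq table (GRCm38.p6), in lower case, with capitals for the motifs searched on both strands: the GATA motif (GATA preceded by A or T and followed by A or G), the CACCC box as CCNCNCCC, of which CCACACCC is the strict form, the TATA box as TATAAA, and CCAAT. Matches of the loose and strict CACCC box overlap. Near variants of these strings, such as other TATA-like or CACCC-like stretches, were not searched and stay in lower case. A window without capitals for a motif may therefore still hold such an element. Hbb-bs stands in for Hbb-b1, for which the table held no entry.
Hba-a1 (chr11:32283552-32283671, plus strand): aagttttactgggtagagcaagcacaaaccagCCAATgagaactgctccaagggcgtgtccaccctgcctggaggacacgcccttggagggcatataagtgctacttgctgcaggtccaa
Hba-x (chr11:32276480-32276599, plus strand): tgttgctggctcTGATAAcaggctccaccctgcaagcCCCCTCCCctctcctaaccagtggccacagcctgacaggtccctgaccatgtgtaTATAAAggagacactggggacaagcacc
Hbb-y (chr7:103853208-103853327, minus strand): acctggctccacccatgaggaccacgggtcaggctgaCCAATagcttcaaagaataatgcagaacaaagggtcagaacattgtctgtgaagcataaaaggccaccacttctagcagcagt
Hbb-bs (chr7:103827929-103828048, minus strand): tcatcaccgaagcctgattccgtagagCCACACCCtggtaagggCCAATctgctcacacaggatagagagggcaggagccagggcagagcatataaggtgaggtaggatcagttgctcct

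Of the 9 genes, 7 had an entry, while Hbb-b1 and Hbb-bh1 did not. In the windows printed, CCAAT began 88 bases before the start in Hba-a1, 83 in Hbb-y and 76 in Hbb-bs, and Hba-x had TATAAA at 28 and a GATA motif at 108. The strict box CCACACCC was found in Hbb-bs, 93 bases before the start, and the loose form CCNCNCCC began at 83 in Hba-x. Over the whole 300-base windows of all 32851 promoters, CCAAT occurred in 37.4%, a GATA motif in 29.8%, TATAAA in 13.6%, CCNCNCCC in 49.5% and CCACACCC in 3.56%. Further upstream, GATA motifs began 183 bases before the start in Hba-a1, 162 in Hbb-y, 210 in Hbb-bs and 234 in Hba-x. Alas2, Epor and Klf1 had a GATA motif at 86, 54 and 80 bases, and Gata1 had none in its window. CCNCNCCC matched 4 times each in Alas2 and Epor and 3 times in Gata1, with overlapping matches counted. Hba-a1, Hbb-y and Klf1 held no match of it. The windows of Hba-a1 and Hba-a2 shared a run of 297 bases, so that these copies are alike upstream as well as in their coding part. A match of letters is a description and not a bound site.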

How the data were processed

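Scanner files of 4 two-colour Agilent arrays were analysed. The authors ran Agilent Feature Extraction 10.7.3.1, per the submitters' processing notes. The deposited mean and background intensity values are raw, and the processed intensity is, per the file headers, background-subtracted and dye-normalised. The deposited log10 ratio (red over green) served to check directions. The deposited series table holds a score per probe and array, a signed fold change of unstated normalisation, and was an alternative only.

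Intensities were corrected with limma 3.58.1 (R 4.3.3) by normexp (offset 50) over all spots and then by within-array loess (span 0.3, control spots with no weight). Control spots and spots flagged as outliers (3.01% to 3.38% of gene spots) were then left out and the 4 spots of a probe averaged. A gene, represented by its brightest probe, was tested if well above background (over 0.5 of its spots) in the control or the treated channel of all 4 arrays. Log2 ratios were fitted with lmFit and eBayes, with a dye term, leaving 2 residual degrees of freedom per gene. Adjusted p is two-sided, Benjamini-Hochberg over 22455 genes, threshold 0.05. Channel signals are loess and Aquantile values on the log2 scale. The calculations were tested on simulated data. The number of arrays limits the precision.

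The members and gene lists were chosen with earlier results of these data known. The text names every member, the other erythroid genes past the test, the other globins and Slc4a1, Ahsp, Rhag, Tal1, Nfe2 and Gfi1b, and for each marker list at most 4 examples by signal. One gene of this rule is not reported here. The study's methods name no test for the arrays. In all, 20 alternatives were run, 18 of them with a test. Names and positions (mm9) are those of the array files, without an annotation of that build.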

Additional observations from a re-analysis of the deposited data

Results flagged for a closer look

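Among 33 genes checked for an array that lies far from the other 3, Car1, a carbonic anhydrase of red cells, had a log2 ratio of -0.44 with its brightest probe on array 3 against -0.23, -0.24 and -0.21 on arrays 1, 2 and 4. Chance gives about 1.65 such genes in 33, and 1 was found. The second probe of Car1 gave -0.12, 0.18, -0.13 and 0.07 on arrays 1 to 4.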

How the results depend on the processing

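Of the 5 globin calls, that of Hba-x was lost under 1, those of Hba-a1, Hbb-b1 and Hbb-y under 2 each and that of Hbb-bh1 under 7 of 18 alternatives. Alas2 gained a call under 3, and Epor and Gata1 under 1 each. On the arrays with the treated pool in green alone the log2 ratio of Hbb-y was -0.12, and with the mean over probes that of Ermap was -0.01. Members called higher numbered 3 with median centring, 3 without the dye term and 1 without the pairing of channels on an array (no replicate block), and 4 to 6 when 1 array was left out. Other erythroid genes called higher numbered 7 with median centring, 7 with the series table, 5 without the dye term, 4 without the pairing and 6 to 14 without 1 array, with the 6 being without replicate 2 and 7 without replicate 3. Those called lower numbered 3 with processed signals, 2 without the pairing and 3 to 4 without 1 array (3 without replicate 2 or 3). Over all genes the numbers called higher and lower were 1833 and 2050 with the series table and 2040 and 2069 without the pairing, and 2878 to 3345 and 2180 to 2813 without 1 array (2180 without replicate 3). The median over all genes was -0.01 with median centring, 0.01 with processed signals and 0.00 for each probe on its own. The cause of these changes was not tested. Median scaling of the spread between arrays was chosen after seeing the data.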
